A study of Mus musculus with 4 samples.

Results

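The paired-box genes Pax2, Pax5, Pax8, Pax3, Pax7 and Pax6, the Engrailed genes En1 and En2, and the homeobox genes Gbx2 and Otx1 encode transcription factors that set up the midbrain and its borders. They were chosen by name, and all 10 were measured, each by 1 transcript cluster (the probes that cover a transcript), out of 19938 genes with a cluster of their own on the array. Expression was measured with 1 array in each of 4 sorted mouse populations. The ESC-derived populations, CORIN+LMX1A::GFP+ and its counterpart CORIN-LMX1A::GFP+, were sorted on day 9. They came from ESCs of the 129SVEV background that carry GFP knocked in at Lmx1a and that had been differentiated as SFEBq aggregates (floating aggregates in serum-free medium) with FGF8b and SHH. CORIN+ and CORIN- cells were sorted from the ventral midbrain (VM, the fetal ventral mesencephalon) of C57BL/6N fetuses at E11.5, without a gate on LMX1A. RNA came from at least 100000 sorted cells, and the sources used here do not say how many cultures or fetuses were pooled. Because there are no replicate arrays, the values below describe these 4 arrays and carry no test.

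In the neural tube, Otx genes mark the forebrain and midbrain and Gbx2 marks the anterior hindbrain, and the isthmic organizer forms where their domains meet. Pax2, Pax5 and Pax8, which are closely related, and En1 and En2 are expressed around this border, and the organizer signals through FGF8 and WNT1. Pax3 and Pax7 mark the dorsal (alar) side of the midbrain, and Pax6 marks the forebrain and diencephalon in front of it. En1 and En2 are also needed for the survival of midbrain dopaminergic (mDA) neurons.

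Corin, whose product the sort selects, had a log2 signal of 13.10 and 11.13 in the ESC-derived CORIN+ and CORIN- arrays and of 11.43 and 7.28 in the fetal ones. Foxa2, Shh and Sox2, markers of floor plate and neural progenitors, had log2 signals of at least 10.31 in all 4 arrays. The neural progenitor list as a whole was not level. Of its 5 genes only 1, Sox2, was higher in ESC-derived than in fetal cells in each CORIN gate. The median log2 differences were -0.87 (CORIN+) and -0.95 (CORIN-). Hes5 stood at 9.57 and 8.74 in the ESC-derived CORIN+ and CORIN- arrays and at 11.54 and 11.51 in the fetal ones. Over all 28856 clusters, 1 array differed from another with a scaled median absolute deviation (MAD, a spread scaled to the SD of a normal distribution) of 0.146 log2 units between the ESC-derived arrays, 0.162 between the fetal arrays, 0.245 between the CORIN+ arrays of both systems and 0.259 between the CORIN- arrays. This spread over clusters served as the yardstick for the differences below. The fetal CORIN+ array stood apart by genes of other cell types. All 6 macrophage genes and all 7 mesenchyme genes of the marker lists were at least 2-fold higher in it than in the fetal CORIN- array. No array gives detection calls, so the 1035 clusters of olfactory receptor genes, which are not known in these cells, were taken as a dim reference. Their 95th percentile lay between 6.84 and 6.96 in log2 signal.

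Across the 4 arrays, every member had a lower signal in both ESC-derived arrays than in both fetal arrays, an order that 29.2% of all clusters share. The highest of the 4 signals lay in the fetal CORIN- array for 9 of 10 members, against 35.9% of all clusters, and in the fetal CORIN+ array for En1. The distance from culture to tissue was uneven. En2, Pax6 and Pax5 had large gaps, whereas En1 and Pax2 had small ones. Of the 30 gaps between neighbouring arrays in these orders, 7 were no larger than the MAD of the arrays concerned. They were the gap between the ESC-derived arrays for Pax5 and En1, between the fetal arrays for Pax3 and En2, between the CORIN+ arrays of both systems for Pax2, between the ESC-derived CORIN+ and fetal CORIN- arrays for En1, and between the ESC-derived CORIN- and fetal CORIN+ arrays for Otx1.

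**Figure D1:**
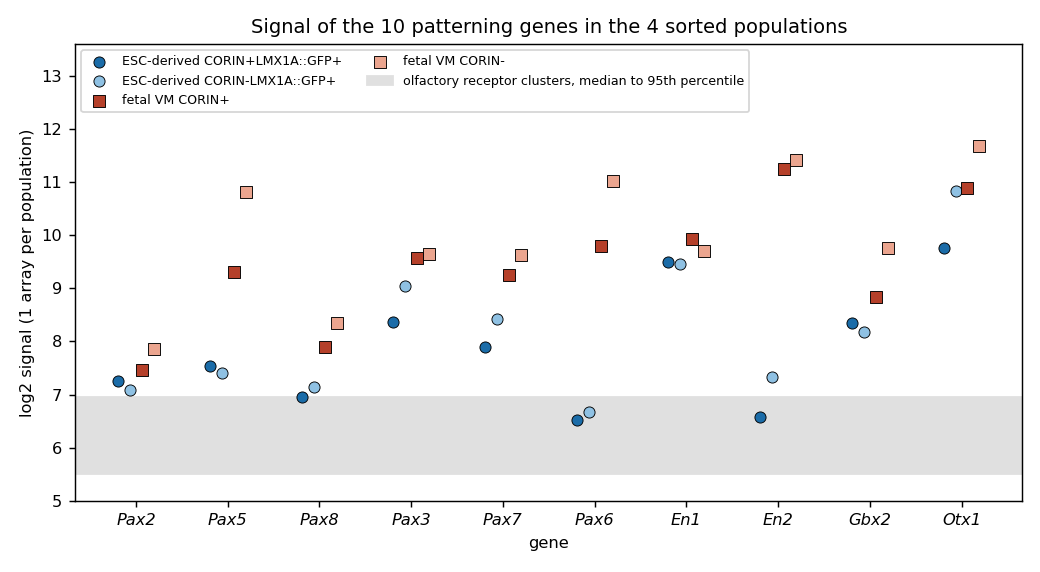
Log2 signal (vertical axis) of the 10 genes in the 4 populations, with circles for ESC-derived cells, squares for the fetal VM and 1 array per point. The grey band runs from the lowest median of the olfactory receptor clusters in any array to their highest 95th percentile (6.96, fetal CORIN-). Circles lie below squares for each gene. The ESC-derived points of Pax6 (6.52 and 6.67) and the ESC-derived CORIN+ points of En2 (6.59) and Pax8 (6.95) lie inside the band. For Pax8 this is above the 95th percentile of its own array, 6.84.

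Pax2, Pax5 and Pax8 form the group that marks the midbrain-hindbrain border. Pax2, the earliest of them, had a log2 signal of 7.25 in the ESC-derived CORIN+ array, 7.09 in the ESC-derived CORIN- array, 7.47 in the fetal CORIN+ array and 7.85 in the fetal CORIN- array. It was the narrowest of the 3, and the fetal CORIN- array was the high one. Pax5 had log2 signals of 7.54, 7.40, 9.31 and 10.82 in the same order of arrays. Both fetal signals of Pax5 stood far above the culture, and the fetal CORIN- array was again the highest. Pax8 had log2 signals of 6.95, 7.15, 7.90 and 8.34, with a moderate step between the systems. All 3 were above the dim reference in each array, Pax8 in ESC-derived CORIN+ cells by the least.

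Pax3 and Pax7 are the dorsal pair. Pax3 had log2 signals of 8.36 and 9.05 in the ESC-derived CORIN+ and CORIN- arrays and of 9.58 and 9.64 in the fetal ones. Pax7 had log2 signals of 7.89, 8.43, 9.26 and 9.63. In both genes the ESC-derived CORIN+ array was the lowest of the 4. Pax6, which also marks progenitors and early neurons at other levels of the brain, had log2 signals of 6.52, 6.67, 9.79 and 11.01. Both ESC-derived values of Pax6 fell within the dim reference, so the size of its distance to the fetal arrays depends on the background of the array.

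The Engrailed genes had unlike patterns. En1 had log2 signals of 9.49 and 9.46 in ESC-derived CORIN+ and CORIN- cells and of 9.93 and 9.70 in fetal CORIN+ and CORIN- cells, a span of 0.46 log2 units over all 4 arrays. En2 had log2 signals of 6.59, 7.32, 11.25 and 11.42, a span of 4.83. The En2 cluster stood at the 27.6th and 40.2nd percentile of all clusters in the ESC-derived CORIN+ and CORIN- arrays and at the 90.5th and 91.8th in the fetal CORIN+ and CORIN- arrays. In ESC-derived CORIN+ cells it was within the dim reference.

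Gbx2, the gene of the hindbrain side, had log2 signals of 8.35 and 8.18 in ESC-derived CORIN+ and CORIN- cells and of 8.83 and 9.75 in fetal CORIN+ and CORIN- cells. The fetal CORIN- array stood apart from the other three. Otx1, a homeobox gene of the forebrain and midbrain, had log2 signals of 9.76, 10.84, 10.89 and 11.67. The ESC-derived CORIN+ array was the lowest, and the ESC-derived CORIN- and fetal CORIN+ arrays were 0.055 log2 units apart.

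The signal of En1 was similar in culture and tissue, though lower in culture. Those of Pax5 and Pax6 were low in culture and highest in fetal CORIN- cells. To show genes with gaps of such unlike size in sequence, the 250 bases before the start site are printed for En1, Pax5 and Pax6. They come from the RefSeq table of build GRCm38.p6, which held 7 of the 10 members (without Pax3, En2 and Otx1), and are written 5′ to 3′ on the gene's strand. For Pax6, which has several start sites in the table, the one farthest upstream is shown. Capitals mark CACGTG (an E-box) and CCAAT (the CCAAT box, or its reverse complement), and TAATTA (a homeodomain core) and TATAAA were searched on both strands as well.
En1, plus strand, chr1:120602237-120602486: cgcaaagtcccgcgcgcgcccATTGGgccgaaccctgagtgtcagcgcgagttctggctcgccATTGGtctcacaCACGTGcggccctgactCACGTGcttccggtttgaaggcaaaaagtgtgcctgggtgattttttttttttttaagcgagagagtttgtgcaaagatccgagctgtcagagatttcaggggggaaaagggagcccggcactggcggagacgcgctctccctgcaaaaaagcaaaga
Pax5, minus strand, chr4:44710695-44710944: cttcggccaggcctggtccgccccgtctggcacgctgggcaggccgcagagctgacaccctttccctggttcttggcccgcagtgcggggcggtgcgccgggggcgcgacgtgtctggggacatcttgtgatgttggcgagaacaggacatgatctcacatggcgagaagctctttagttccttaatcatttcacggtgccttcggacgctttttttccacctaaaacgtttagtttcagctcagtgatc
Pax6, plus strand, chr2:105668646-105668895: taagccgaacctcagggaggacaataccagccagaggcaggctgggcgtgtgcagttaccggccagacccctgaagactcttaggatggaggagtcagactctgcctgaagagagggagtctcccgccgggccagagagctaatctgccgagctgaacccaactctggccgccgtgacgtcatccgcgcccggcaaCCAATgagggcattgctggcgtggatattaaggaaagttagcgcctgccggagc

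The En1 window held CACGTG at 175 to 170 and at 158 to 153 bases before the start and the CCAAT box on the other strand at 229 to 225 and at 187 to 183. The Pax6 window held CCAAT at 54 to 50 bases before the start, and the Pax5 window held none of the 4 motifs. Of all 32851 promoter windows of this length, 6.02% held CACGTG, 33.8% CCAAT, 4.84% TAATTA and 12.4% TATAAA. Among the other members, Gbx2 held CACGTG, Pax8 held CCAAT, and Pax2 and Pax7 held none of the 4. The CpG count was 19 in the windows of En1 and Pax5 and 15 in that of Pax6, against a median of 6 over all windows. These matches describe the letters of the windows and say nothing of binding.

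The first comparison, within the LMX1A::GFP+ cells, asked how the CORIN gate divides the regional identity that these genes mark. No member reached 2-fold upward in CORIN+LMX1A::GFP+ cells, where 0.353% of all clusters do, and 1 of 10 reached 2-fold downward, where 0.468% of all clusters do. That gene was Otx1, 2.12-fold lower. En2, Pax3 and Pax7 were lower by less than that, at log2 differences of -0.74, -0.69 and -0.54. Pax8 and Pax6 stood at -0.20 and -0.16, close to the MAD of 0.146. En1, at 0.03, and Pax5, at 0.14, were within this MAD, and Pax2, at 0.16, and Gbx2, at 0.17, just past it. The median over the members was -0.18, against 0.0024 over all clusters.

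Pluripotency genes (4 of 4 at least 2-fold lower), mesenchyme genes (4 of 7) and neuronal genes (6 of 6 lower, 1 at least 2-fold) were also lower in the ESC-derived CORIN+ array, with summed linear signals of 494 against 3416, 1450 against 2978 and 10270 against 14530. Their part in the values of Otx1, En2, Pax3 and Pax7 was not tested. In bulk RNA, fewer cells that express a gene cannot be told apart from less RNA per cell.

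In the fetal VM, Pax5 and Pax6 were lower in CORIN+ cells. Pax5 was 2.84-fold lower and Pax6 was 2.34-fold lower, which makes 2 of 10 members at least 2-fold lower, where 0.672% of all clusters are. Gbx2 and Otx1 came next, at log2 differences of -0.92 and -0.78. Pax8, Pax2 and Pax7 stood at -0.44, -0.39 and -0.38, all past the MAD of 0.162. En2, at -0.16, and Pax3, at -0.06, were within it. En1 was the only member with a higher signal in CORIN+ cells, at 0.22. The median over the members was -0.41, against -0.037 over all clusters, and no member was at least 2-fold higher, where 2.67% of all clusters are.

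All 7 genes of GABAergic midbrain neurons were at least 2-fold lower in the same fetal CORIN+ array, with a summed linear signal of 5565 against 17070, and all 6 neuronal genes were lower, none of them 2-fold. In the other direction the summed signal was 13340 against 546 for macrophage genes, 13520 against 2494 for mesenchyme genes and 13320 against 3226 for 3 erythroid genes. The part of these cell types in the lower signals of the members was not tested. Pax5 is also known from B cells. Of the 4 measured B cell genes, Cd79a lay within the dim reference in all 4 arrays (5.81 to 6.27), and Vpreb1 had log2 signals of 6.62 to 6.97. Cd79b was 2.38-fold higher in the fetal CORIN+ array. Ebf1, which early neurons also express, had log2 signals of 9.52, 10.46, 12.06 and 12.22 in the same order of arrays as for Pax2, with a log2 difference of -0.16 in the fetal pair and, like Pax5, lower signals in culture (-2.54 and -1.76 in the CORIN+ and CORIN- gates). For Pax3 and Pax7, which muscle and neural crest also use, the muscle regulators Myf5, Myod1 and Myog had log2 differences between -0.24 and 0.01 in the fetal pair. The 6 measured crest genes lay between -0.75 (Tfap2a) and 0.66 (Mitf) there, with a median of -0.04 and none at 2-fold. The part of these cell types was not tested.

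**Figure D2:**
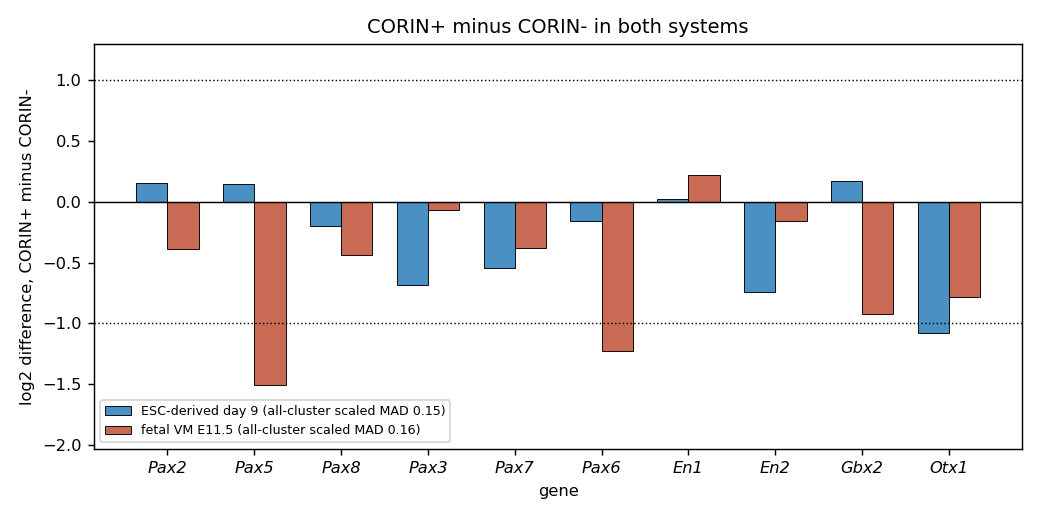
Log2 difference (vertical axis), CORIN+ minus CORIN-, of the 10 genes in the ESC-derived cells (blue) and in the fetal VM (red), with 1 array per population and dotted lines at 2-fold. Otx1 passes the lower line in the ESC-derived cells (-1.08) and Pax5 (-1.51) and Pax6 (-1.23) pass it in the fetal VM.

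The comparison of ESC-derived with fetal cells of the same CORIN gate places the cultured cells beside the tissue they model. In it, culture, the 129SVEV and C57BL/6N backgrounds, the GFP gate and the stage change together and cannot be told apart. Both comparisons draw on the same 4 arrays as the ones above, so their values are given side by side and are no separate evidence. In CORIN+ cells, 6 of 10 members were at least 2-fold lower in culture, where 3.86% of all clusters are, and in CORIN- cells again 6 of 10, where 3.53% of all clusters are. No member was at least 2-fold higher in culture in either gate, where 2.7% (CORIN+) and 3.94% (CORIN-) of all clusters are. Nor was any member higher in culture by a smaller amount, while the median difference over all clusters was 0.016 (CORIN+) and -0.020 (CORIN-).

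En2, Pax6, Pax5 and Pax7 were at least 2-fold lower in culture in both gates. En2 was 25.4-fold lower in CORIN+ cells and 17.1-fold lower in CORIN- cells. Pax6 was 9.67-fold and 20.3-fold lower, and Pax5 was 3.42-fold and 10.7-fold lower. Pax7 was 2.59-fold and 2.30-fold lower, at nearly the same size in both gates. Pax3 (2.32-fold) and Otx1 (2.20-fold) passed 2-fold in CORIN+ cells, and stood at 1.51-fold and 1.78-fold in CORIN- cells. Gbx2 (2.97-fold) and Pax8 (2.29-fold) passed it in CORIN- cells, and stood at 1.39-fold and 1.94-fold in CORIN+ cells. The members under 2-fold in both gates were Pax2, with log2 differences of -0.21 and -0.76, and En1, with -0.44 and -0.24. En1 in CORIN- cells and Pax2 in CORIN+ cells lay within the MAD of their comparison.

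The median log2 difference of the members was -1.18 for the CORIN+ gate and -1.20 for the CORIN- gate, against 0.016 and -0.020 over all clusters. Macrophage and mesenchyme genes, present in the fetal CORIN+ array, differed strongly in the first gate (medians of -4.84 and -3.25) and little in the second (-0.12 and 0.36). All 6 floor plate genes were higher in culture, 4 of them past 2-fold in each gate (log2 differences of 0.63 to 1.74 and of 0.24 to 3.85). Corin, Shh, Ntn1 and Foxa1 were past 2-fold in both gates. Corin is itself the sorting marker, so its values are no separate reading of floor plate identity. It gave the 3.85, with log2 signals of 11.13 and 7.28 in the ESC-derived and fetal CORIN- arrays. Shh came next in that gate, at 1.93. The pluripotency genes passed 2-fold upward in 4 of 4 cases in CORIN- cells (median of 2.81) and in none in CORIN+ cells. Erythroid genes were lower in culture in both gates, with medians of -5.76 and -3.08. Neuronal genes were at least 2-fold lower in culture in 5 of 6 cases in both gates and GABAergic genes in 6 of 7 and 7 of 7, and the part of these cells in the members' values was not tested.

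**Figure D3:**
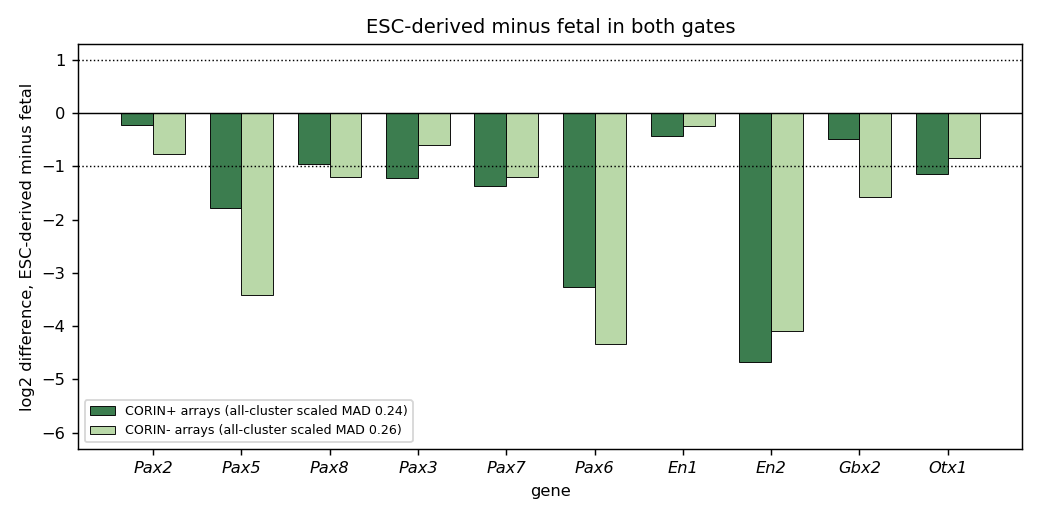
Log2 difference (vertical axis), ESC-derived minus fetal, of the 10 genes in the CORIN+ arrays (dark green) and the CORIN- arrays (light green), with dotted lines at 2-fold. All bars point down, from -0.21 (Pax2, CORIN+) to -4.67 (En2, CORIN+).

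Genes that act with the members at the midbrain-hindbrain border were read from a list of 16, of which 15 were measured (Lmx1a was not analysed here, because no cluster is paired with it alone). In culture against tissue, 3 passed 2-fold upward and 2 downward in CORIN+ cells, and 4 and 2 did so in CORIN- cells, with medians of -0.08 and 0.18. Of all clusters, 2.7% passed upward and 3.86% downward in CORIN+ cells, and 3.94% and 3.53% in CORIN- cells. Otx2, the partner of Gbx2 in placing the border, had log2 signals of 12.89, 12.95, 12.76 and 12.93 in the same order of arrays as for Pax2. It was level across all 4, unlike its relative Otx1. Wnt1, an organizer signal, was 3.23-fold higher in culture in CORIN+ cells and 15.6-fold higher in CORIN- cells. Lmx1b, a LIM homeobox gene of the organizer and of mDA progenitors, was 2.56-fold and 4.47-fold higher, and Dusp6, a feedback inhibitor induced by FGF signals, was 2.20-fold and 3.84-fold higher. Etv5, an FGF target, was 2.79-fold higher in CORIN- cells and stood at 1.11-fold in CORIN+ cells.

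Cnpy1, an FGF modulator of the isthmus, ran with En2. It was 8.30-fold lower in culture in CORIN+ cells and 5.90-fold lower in CORIN- cells. Fgf8 itself stood at log2 differences of -0.25 and -0.51, and Fgf18 and Sp8 each passed 2-fold lower in 1 gate (2.17-fold in CORIN+ and 2.87-fold in CORIN- cells). Sp8 was within the dim reference in both ESC-derived arrays, so its fold depends on the background. Within the pairs, Spry1, an FGF feedback inhibitor, was the only gene of this list to pass 2-fold among the ESC-derived cells (2.10-fold lower with CORIN), and Wnt1 the only one to pass it in the fetal VM (2.63-fold higher with CORIN). In the ESC-derived pair Wnt1 stood at -0.87.

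**Figure D4:**
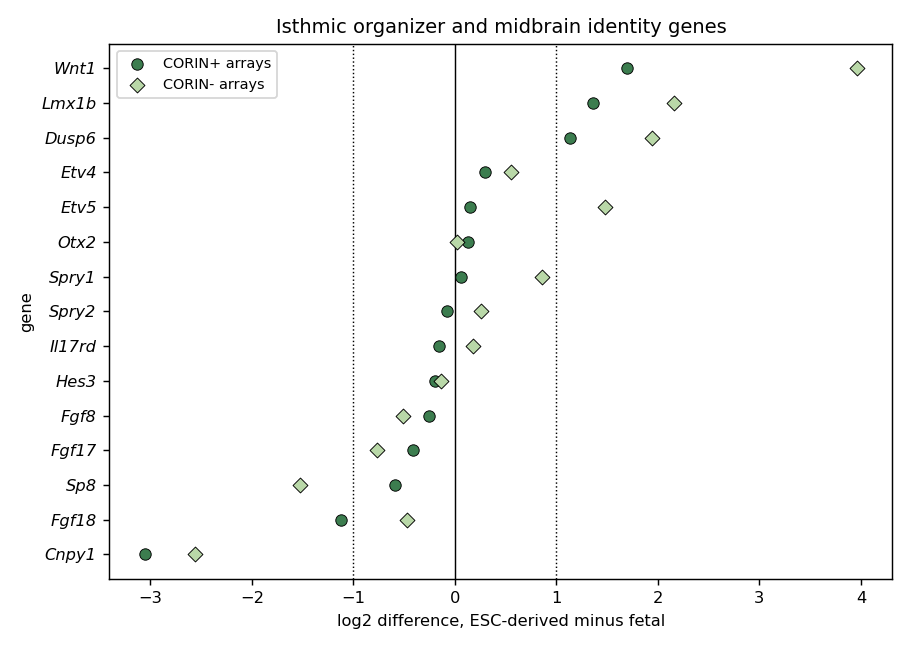
Log2 difference (horizontal axis), ESC-derived minus fetal, of 15 genes of the isthmic organizer and midbrain identity list in the CORIN+ arrays (circles) and the CORIN- arrays (diamonds), with dotted lines at 2-fold. Wnt1 (1.69 and 3.96) lies farthest right and Cnpy1 (-3.05 and -2.56) farthest left, with Otx2 at 0.13 and 0.02.

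Lists of the neighbouring regions were read in the same way. Beside them, 3.86% (CORIN+) and 3.53% (CORIN-) of all clusters were at least 2-fold lower in culture, and 2.7% and 3.94% higher. Of 10 genes of the dorsal neural tube and tectum, 5 in CORIN+ cells and 4 in CORIN- cells were at least 2-fold lower in culture and none was at least 2-fold higher. Tfap2b was 15.2-fold and 25.6-fold lower, and Olig3 4.60-fold and 14.8-fold lower, and Zic1 stood at log2 differences of -4.64 and -2.78. Zic1 had its highest log2 signal, 12.11, in the fetal CORIN+ array, which also held the mesenchyme genes. The part of that cell type in the values of this list was not tested. Tfap2b and Olig3 in both ESC-derived arrays, and the forebrain gene Emx2 in the CORIN+ one, were within the dim reference, and their folds vary with the array's background. Of 8 measured forebrain and pretectal genes, which share the territory of Pax6, 5 and 6 were at least 2-fold lower in culture, with Lhx2 at log2 differences of -3.32 and -2.53 and Emx2 at 6.94-fold and 7.71-fold lower. Of 7 measured genes of basal plate and lateral progenitors, 6 and 3 were lower by that measure and 1 in each gate, Nkx6-1, was higher (2.39-fold and 2.17-fold). Of 8 measured genes of the anterior hindbrain, the side of Gbx2, Irx2 was lower in both gates (2.05-fold and 2.93-fold), and Hoxb2 was 2.02-fold higher in CORIN+ cells.

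Within the pairs, 3 of 8 forebrain genes in each system were at least 2-fold lower with CORIN and none was at least 2-fold higher. Over all clusters, 0.468% (ESC-derived) and 0.672% (fetal) were at least 2-fold lower. The genes were Barhl2, Lhx5 and Lhx2 in the ESC-derived pair and Lhx5, Six3 and Emx2 in the fetal pair. Lhx5 was 3.36-fold lower in the ESC-derived pair and 2.61-fold lower in the fetal pair. Barhl2, of the same list, was 5.86-fold lower in the ESC-derived pair and stood at 1.56-fold in the fetal pair. Of the 7 basal plate and lateral genes, 3 in each system passed 2-fold downward with CORIN and none upward. They were Dbx1, Neurog1 and Irx3 in the ESC-derived pair and Helt, Nkx2-2 and Nkx6-2 in the fetal pair. Dbx1 was 5.50-fold lower in the ESC-derived pair and 1.31-fold lower in the fetal pair, where Neurog1 and Irx3 had log2 differences of -0.56 and -0.19. In the ESC-derived pair, Nkx2-2, Nkx6-2 and Helt stood at -0.14, -0.17 and 0.26. Helt was within the dim reference in ESC-derived CORIN- cells. Which genes pass in which pair thus depends on the threshold. Of the 10 dorsal genes, 1 passed 2-fold downward in each pair, Zic2 in the ESC-derived pair (2.32-fold) and Olig3 in the fetal pair (3.11-fold). In the fetal pair 2 passed it upward, Msx1 (3.11-fold) and Zic2 (2.41-fold), where 2.67% of all clusters do. The mesenchyme genes were also higher in that fetal CORIN+ array, and their part in these 2 values was not tested. The list was set by name, so a higher signal of Msx1 or Zic2 here is no reading of dorsal identity. Of the paralogs outside the members (Pax1, Pax4, Pax9, Otx2, Gbx1, Crx and Gsc), the only one past 2-fold in any comparison was Pax9, 2.07-fold higher in ESC-derived than in fetal CORIN- cells. Of 12 measured partners and cofactors of Pax proteins, none passed 2-fold within either pair. Eya2, a coactivator of the PAX-SIX network, was 2.39-fold and 4.09-fold higher in culture in CORIN+ and CORIN- cells.

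The 8 members whose signals spanned at least 1 log2 unit were set against the 2726 genes with such a span, by the root mean square difference of the 4 centred log2 signals. Over only 4 arrays many genes lie close, and the match is a description of shape alone. Nearest to Pax5 were Nrxn3 (0.073 log2 units), Sst (0.137) and Epha5 (0.157). Nearest to Pax6 were Ndst3 (0.187), Lhx9 (0.234) and Tfap2b (0.303), and nearest to En2 were Lhx9 (0.295), Tfap2b (0.336) and Minar2 (0.382). Gbx2 had Bmerb1 (0.034), A930017M01Rik (0.043) and Sp8 (0.044), and Otx1 had Magel2 (0.063), Chrna4 (0.101) and Nefl (0.112). Pax8, Pax7 and Pax3 had as their closest genes Sybu (0.0097), Meg3 (0.040) and Myb (0.053). Among the members themselves, Pax7 and Pax8 were closest to each other, at 0.162, and Pax6 and En2 were each other's nearest member, at 0.516.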

How the data were processed

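The deposited values are log2 signals of 28856 transcript clusters in 4 Affymetrix whole-transcript arrays, which the authors analysed with GeneSpring after labelling with the Ambion WT Expression kit. For probe summarization, normalization and build: not given in the sources used here. Read as log base 2, the largest value is a linear signal of 23297, within the range of a scanner.

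Symbols came from the platform annotation, with 21789 clusters paired with 1 symbol, 1621 with several and 5446 unnamed here. For 21698 of those with 1 symbol the gene identifier was found among the GRCm38.p6 names, and that name was used, whether or not it differed. The brightest cluster represents a gene. Differences were taken between arrays and counted at 2-fold. No test was possible with 1 array per population, whose number limits the precision. Members and lists were chosen with earlier results of these data known. The named genes are the members, fixed list genes always named (Otx2, Wnt1, Fgf8, Lmx1b) and up to 4 genes per list with the largest difference. Spry1, Etv5, Fgf18, Sp8, Nkx6-1, Irx2 and Hoxb2 and the markers were named for their counts or as controls. The counting at 2-fold was checked on simulated arrays with known changes. Python 3.11.15, numpy 2.4.6, pandas 2.3.3 and matplotlib 3.10.9 were used.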

Additional observations from a re-analysis of the deposited data

Results flagged for a closer look

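For 3 members the CORIN+ minus CORIN- difference had opposite signs in the ESC-derived cells and in the fetal VM. The log2 difference was 0.14 and -1.51 for Pax5, which are 1.65 apart, 0.17 and -0.92 for Gbx2, which are 1.09 apart, and 0.16 and -0.39 for Pax2, which are 0.55 apart. This difference between the systems was not tested, since each value rests on 1 array per population. The spread of the ESC-derived differences over all clusters was 0.146, about the size of these 3 ESC-derived values.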

How the results depend on the processing

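Quantile normalization, centring each array on its median and averaging the clusters of a gene (each member has 1) left the counts of members past 2-fold the same and moved neither the members' medians nor any member by more than the MAD. A threshold of 1.5-fold gave 3 members lower with CORIN among ESC-derived and 4 among fetal cells, and 3-fold gave 0 in both (1.98% and 2.59% of all clusters at 1.5-fold, 0.125% and 0.0485% at 3-fold). In culture against tissue, 1.5-fold gave 7 members lower in CORIN+ and 9 in CORIN- cells (7.03% and 6.8% of all clusters) and 3-fold gave 3 and 3 (1.71% and 1.22%). With 32 added to the linear signal, En2 stood at -0.59 in the ESC-derived pair and at -4.27 in culture against tissue in CORIN+ cells, and Pax6 at -2.89 and -3.97 in CORIN+ and CORIN- cells. Subtracting the olfactory receptor median, an alternative chosen after seeing the data, gave 2 members at least 2-fold lower in the ESC-derived pair, the added one En2 at -1.18, and 7 members lower in culture in each gate, the added ones Pax8 at -1.31 in CORIN+ and Pax2 at -1.02 in CORIN- cells. It gave -5.56 for En2 in CORIN+ and -5.16 for Pax6 in CORIN- cells. Pax5 moved by more than the MAD as well, to -2.07 in CORIN+ and -3.84 in CORIN- cells. Folds of members that are dim in culture thus depend on the background. So do those of Pax8, Pax2 and Pax5, which lay above the dim reference in each array. No paired analysis was possible because each population has 1 array.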
